A study of Mus musculus with 12 samples.

Results

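Surface molecules through which a macrophage signals to other cells, and by which its activation is commonly followed, were examined 1 h after LPS in bone marrow derived macrophages (BMDM). The 6 genes were Cd69, Tnfsf9, Icam1, Cd40, Cd80 and Cd86. Every array probe that the platform's probe-to-gene table assigns to 1 of the 6 genes was taken, which gave 11 of 25697 probes, and 6 of 16593 named genes. Cd69, Tnfsf9, Icam1 and Cd80 had 1 probe each, Cd86 had 3 and Cd40 had 4.

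BMDM of Balb/c mice were grown from femur bone marrow with M-CSF, kept overnight without it, and then left untreated or exposed for 1 h to hBD3 (human β-defensin 3, a cationic antimicrobial peptide), to LPS (lipopolysaccharide of E. coli, the ligand of TLR4), or to both together, called LPS plus hBD3. LPS was used at 50 ng/mL. The dose of hBD3 was taken as 5 μg/mL from the methods, since the 5 mg/mL in the labels differs from it, and the labels of the combined treatment hold no dose. There were 3 arrays per group, and by the submitters' design note 3 separate mice per condition. The age and sex of the mice, and whether equal replicate numbers in different groups mark the same mouse, could not be taken from the sources used here.

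Levels are log2 signals of each probe after quantile normalization across the 12 arrays, and a log FC is a difference of group means on that scale with its standard error (SE). A probe was taken as detected on an array when its detection p, which compares its signal with the array's negative controls, was under 0.01. Between 8958 and 9923 probes were detected per array. LPS replicate 1 stood somewhat apart, with a mean correlation of 0.936 with the other LPS arrays over the detected probes, against 0.968 and 0.959 for LPS replicates 2 and 3. All 7 measured macrophage markers, such as Adgre1, Lyz2 and Mertk, were detected on all 12 arrays, and their summed linear signal was 30530 to 34170 in untreated BMDM, 29400 to 33040 with hBD3, 32130 to 33940 with LPS and 30930 to 33150 with LPS plus hBD3. None of the 7 dendritic cell, 4 B cell or 3 mast cell markers measured was detected on any array, so RNA of those cells was not detectable by these markers. Of 9 T and NK cell markers 8 were never detected, and Cd2 was detected on 6 arrays. Of 6 stromal, endothelial and erythroid markers 5 were never detected, and the collagen gene Col1a1 was detected on 6 arrays, with a log FC of -0.31 with LPS (SE 0.24) and 0.54 for LPS plus hBD3 against LPS (SE 0.24, unadjusted p = 0.0457, adjusted p = 1 from limma). The summed linear signal of these 6 was 272 to 298.8 in untreated BMDM, 279.5 to 300.9 with hBD3, 275 to 298.5 with LPS and 275.6 to 345.7 with LPS plus hBD3, and its part in the results was not tested. S100a8 was the only one of 7 neutrophil markers detected, on all 12 arrays, with a log FC of 0.23 with LPS (SE 0.27). Since whole cultures were measured, fewer cells expressing a gene and less RNA per cell cannot be told apart.

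Binding of LPS to TLR4 activates NF-κB and MAP kinases, and the first target genes are transcribed within the hour. Macrophages at rest carry few co-stimulatory molecules, and activation raises them in waves, so that a T cell receives antigen together with a second signal. CD80 and CD86, the B7 molecules, give that signal by binding CD28, and they also bind the inhibitory receptor CTLA-4. CD40, a receptor of the TNF receptor family, receives a signal from helper T cells, the TNF family ligand encoded by Tnfsf9 binds the receptor 4-1BB on activated T cells, and ICAM-1 holds the cells together through leukocyte integrins. CD69, a lectin-like receptor, is an early activation antigen of many leukocytes.

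Within 1 h of LPS, Cd69 and Tnfsf9 rose, by 4.24-fold and 5.52-fold, and both were lower when hBD3 was present. Tnfsf9 was detected on only 1 of the 3 untreated arrays and Cd69 on 2, so both folds depend on how background is treated. Icam1 and the brightest Cd40 probe had higher means with LPS that did not pass the test over all probes. Only with the replicate number as a block in the model did this Cd40 probe pass (adjusted p = 0.0355 from limma). Cd80 lay near the detection limit in every group, and Cd86 differed more between replicate numbers than between treatments. With hBD3 alone none of the 6 genes passed the test in either direction.

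**Figure D1:**
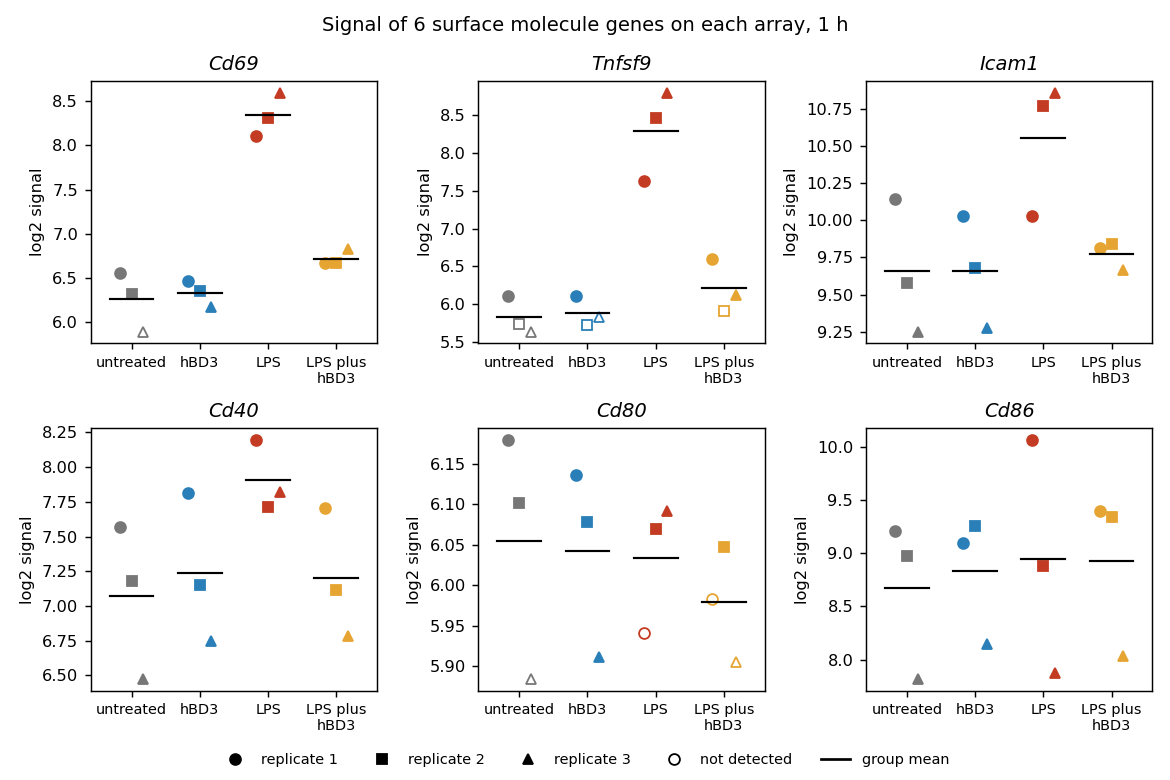
Log2 signal (y axis) of the brightest probe of each of the 6 genes on each of the 12 arrays, by group (x axis). Symbols give the replicate number, open symbols an array on which the probe was not detected, and horizontal lines the group means. The y axes differ between genes, span little for Cd80 and do not start at 0. The 3 LPS arrays of Cd69 and Tnfsf9 lie above all other arrays, while replicate 3 of Cd86 is lowest in each group.

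Of the 2 genes that passed the test, Cd69 had the smaller spread within groups (SD 0.23, against 0.38 for Tnfsf9). Its log2 signal was 6.56, 6.32 and 5.89 in untreated replicates 1, 2 and 3, and the last of these was the only array of all 12 on which it was not detected. With hBD3 alone the signal was 6.46, 6.34 and 6.17. With LPS it was 8.11, 8.31 and 8.59, and with LPS plus hBD3 it was 6.67, 6.67 and 6.82. The LPS arrays were thus the highest and did not overlap with those of any other group, and the LPS plus hBD3 arrays lay in between, just above the highest untreated array. With LPS the log FC of Cd69 was 2.08 (95% interval 1.72 to 2.45, SE 0.16), and limma gave it an adjusted p of 0.000258. Between LPS and LPS plus hBD3 it fell by 1.62 on the log2 scale (SE 0.16, 95% interval -1.98 to -1.26, adjusted p = 0.00527). Of the log FC with LPS, 22.2% was left with LPS plus hBD3, at 0.46 (SE 0.16), and this remainder did not pass the test over all probes (unadjusted p = 0.0173, adjusted p = 1), although the groups did not overlap. The order of the group means was untreated, hBD3, LPS plus hBD3 and LPS, and of neighbouring groups untreated and hBD3 differed by less than their spread.

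Tnfsf9 began at the edge of detection. Its signal was 6.11, 5.74 and 5.64 in untreated replicates 1, 2 and 3, and 6.12, 5.72 and 5.83 with hBD3, and in both groups only replicate 1 was detected. With LPS it was detected on all 3 arrays, at 7.63, 8.47 and 8.79. With LPS plus hBD3 it was 6.59, 5.91 and 6.13, with replicate 2 not detected. Every LPS array was therefore above every array of the other groups by about 1 log2 unit or more, and the other 3 groups overlapped. With LPS its log FC was 2.46 (95% interval 1.86 to 3.06, SE 0.27, adjusted p = 0.00307), and with LPS plus hBD3 it fell by 2.09 on the log2 scale against LPS (SE 0.27, adjusted p = 0.0235). The log FC of LPS plus hBD3 against untreated was 0.38 (SE 0.27, unadjusted p = 0.193), which is 15.3% of that with LPS. LPS replicate 1 was the lowest LPS array for both genes, and without it the log FC with LPS was 2.76 for Tnfsf9 and 2.16 for Cd69. The receptor of the ligand, Tnfrsf9, was detected on no array.

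The calls of both falls were less stable than those of the rises. After background correction from the detection p-values (limma's neqc) the rises were larger, with a log FC of 2.64 for Cd69 and 3.29 for Tnfsf9, and stayed called. In the same fit the adjusted p of LPS plus hBD3 against LPS was 0.0568 for Cd69 and 0.105 for Tnfsf9, with a larger log FC of -1.94 and -2.66. The call of Tnfsf9 in that comparison was also lost on leaving out untreated replicate 2, hBD3 replicate 2 or 3, LPS replicate 2 or 3, or LPS plus hBD3 replicate 2 or 3 (highest adjusted p 0.175), while Cd69 kept it without any single array. In a fit to the compared groups alone, neither the rises nor the falls of both genes passed (adjusted p 0.0649 to 0.514).

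Icam1, an immunoglobulin-like adhesion receptor, was well expressed in all groups and was detected on all 12 arrays. Untreated replicates 1, 2 and 3 had log2 signals of 10.15, 9.57 and 9.25, and hBD3 replicates 10.03, 9.68 and 9.28. With LPS the signal was 10.03, 10.77 and 10.86, so that LPS replicate 1 lay below the highest untreated array while the other 2 LPS arrays were above all arrays of the other groups. With LPS plus hBD3 it was 9.81, 9.84 and 9.67, within the untreated range and below every LPS array. The log FC with LPS was 0.90 (SE 0.27, 95% interval 0.31 to 1.49), with an unadjusted p of 0.00659 by limma and an adjusted p of 1. Against LPS, LPS plus hBD3 had a log FC of -0.78 (SE 0.27, 95% interval -1.37 to -0.19, unadjusted p = 0.0141, adjusted p = 1). Without LPS replicate 1 the values were 1.16 and -1.04, still short of the threshold (adjusted p = 0.251 and 0.565). Untreated, hBD3 and LPS plus hBD3 followed each other within 0.12 in their means, less than the spread of their arrays.

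Of the 6 genes, 2 matched RefSeq's table of promoters (assembly GRCm38.p6), Icam1 and Cd80, and these are shown because the former is a detected gene with a higher mean after LPS and the latter one with none. The Icam1 window lies at chr9:21015690-21015989 on the plus strand, from 250 bases before the start used in that table to 50 after it. Positions count from that start, and whether transcription begins there was not tested. Capitals mark the letters GGAAATTCC, at -153 to -145, and a match to the STAT motif TTCNNNGAA, at -42 to -34.
Icam1: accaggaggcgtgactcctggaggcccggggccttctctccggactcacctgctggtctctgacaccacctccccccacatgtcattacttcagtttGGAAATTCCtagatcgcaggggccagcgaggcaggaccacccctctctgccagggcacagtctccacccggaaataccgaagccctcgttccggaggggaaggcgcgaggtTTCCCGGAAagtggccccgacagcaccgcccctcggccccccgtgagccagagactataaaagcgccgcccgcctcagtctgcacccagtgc
The TTCNNNGAA motif was present in 8.3% of the 32851 promoters in the table and GGAAATTCC in 0.317%. The latter was searched after the sequence had been seen, because a site of this kind is known to bind NF-κB in the human gene. The window of Cd80 lies at chr16:38458683-38458982, also on the plus strand, and capitals mark a match to the AP-1 motif TGANTCA at -42 to -36, a motif present in 7.81% of promoters.
Cd80: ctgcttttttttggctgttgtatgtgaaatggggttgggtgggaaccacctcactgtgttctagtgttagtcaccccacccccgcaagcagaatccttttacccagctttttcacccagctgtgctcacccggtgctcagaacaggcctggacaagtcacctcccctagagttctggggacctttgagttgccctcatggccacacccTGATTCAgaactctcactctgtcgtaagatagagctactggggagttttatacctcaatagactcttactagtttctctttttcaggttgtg
Both strands were searched, also for the NF-κB consensus (8.46% of promoters), the CRE letters TGACGTCA (1.79%) and the core TGACG that lies within them (20.8%), the SRF CArG box (1.63%) and the Egr letters GCGTGGGCG (0.612%), and neither window held any of these. A match is a description of the letters only.

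Cd40 was represented by 4 probes. The brightest, of transcript NM_170702, was detected on all 12 arrays, with log2 signals of 7.57, 7.18 and 6.48 in untreated replicates 1, 2 and 3 and of 7.81, 7.15 and 6.75 with hBD3. With LPS it was 8.19, 7.71 and 7.82. With LPS plus hBD3 it was 7.71, 7.11 and 6.79. All LPS arrays lay above all untreated and all LPS plus hBD3 arrays, by a narrow margin, whereas replicate 1 of hBD3 was above LPS replicate 2. Replicate 1 was the highest array in each of the 4 groups. The log FC was 0.83 with LPS (SE 0.33, unadjusted p = 0.029 by limma) and -0.71 for LPS plus hBD3 against LPS (SE 0.33, unadjusted p = 0.0565), both with an adjusted p of 1. Between LPS and LPS plus hBD3, arrays of equal replicate number differed by -0.49, -0.60 and -1.04, the same direction in 3 of 3. With the replicate number as a block, this fall had an SE of 0.13 and an unadjusted p of 0.000319 from limma (adjusted p = 0.13). In the same fit the rise with LPS had an SE of 0.13 and passed (adjusted p = 0.0355), though the block is least borne out between untreated and LPS arrays. The means of untreated, LPS plus hBD3 and hBD3 lay within 0.16 of each other, well inside the spread of each group.

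The second Cd40 probe, of transcript NM_170704, was detected on 11 arrays and moved less, and its groups overlapped. Its log FC was 0.44 with LPS (SE 0.28) and -0.47 for LPS plus hBD3 against LPS (SE 0.28). Over the 12 arrays it had a correlation of 0.914 with the brightest probe. Between LPS and LPS plus hBD3, its arrays of equal replicate number differed by -0.42, -0.16 and -0.84, all in the same direction. With the replicate number as a block its SE was 0.12 in both comparisons. limma then gave an unadjusted p of 0.00335 with LPS and 0.00222 for LPS plus hBD3 against LPS (adjusted p = 0.496 and 0.479). The remaining 2 probes belong to the noncoding transcript NR_027852. One was detected on no array and the other on 2, and neither lay outside 5.62 to 6.08 on any array. The LPS and LPS plus hBD3 arrays of the former did not overlap, but as it was detected on no array no fold is given. The probes of Cd40 therefore disagree in size, and the changes above refer to the brightest.

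Cd80, the B7 molecule with a single probe, was at the detection limit. Its signal was 6.18, 6.10 and 5.88 in untreated replicates 1, 2 and 3, 6.14, 6.08 and 5.91 with hBD3, 5.94, 6.07 and 6.09 with LPS, and 5.98, 6.05 and 5.91 with LPS plus hBD3. It was detected on 8 of the 12 arrays, spread over all 4 groups, and all groups overlapped. The log FC was -0.02 with LPS (95% interval -0.22 to 0.18) and -0.06 for LPS plus hBD3 against LPS (95% interval -0.25 to 0.14), and neither passed the test. With the signal so close to background, a change in this transcript could be compressed, and no difference was detectable at this signal.

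Cd86, the other B7 molecule, was expressed well above background but varied most. The brightest of its 3 probes, all of transcript NM_019388, had log2 signals of 9.21, 8.98 and 7.82 in untreated replicates 1, 2 and 3 and of 9.10, 9.26 and 8.15 with hBD3. With LPS it was 10.07, 8.88 and 7.88. With LPS plus hBD3 it was 9.40, 9.34 and 8.03. Replicate 3 was lowest in all 4 groups for all 3 probes, and the groups overlapped throughout. The SD within groups was 0.82, at the 99th percentile of the 10123 probes detected on at least 3 arrays, and 0.32 once the mean of each replicate number had been removed. The 3 probes agreed closely, with correlations of 0.967 to 0.994 over the 12 arrays.

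With LPS the log FC of the brightest Cd86 probe was 0.27 (SE 0.58, 95% interval -1.01 to 1.55), and for LPS plus hBD3 against LPS it was -0.02 (SE 0.58, 95% interval -1.30 to 1.26). These intervals, from the fit without a replicate block, include changes of more than 1 log2 unit either way. That fit therefore did not resolve an effect of either treatment on Cd86. With the replicate number as a block, the SE was 0.21 in both comparisons, with limma's unadjusted p at 0.216 and 0.93. Without LPS replicate 1 both signs turned, to -0.29 and 0.54, and the first also turned without untreated replicate 3 (-0.15) and the second without LPS plus hBD3 replicate 3 (0.43) or with array weights (0.13). Between LPS and LPS plus hBD3, arrays of equal number differed by -0.67, 0.46 and 0.16, with no common direction. For the brightest Cd40 probe the SD within groups was 0.47, and 0.20 after the same removal, whereas for Cd69 it was 0.23 and 0.26. What the replicate numbers mark, and their part in these values, was not tested.

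**Figure D2:**
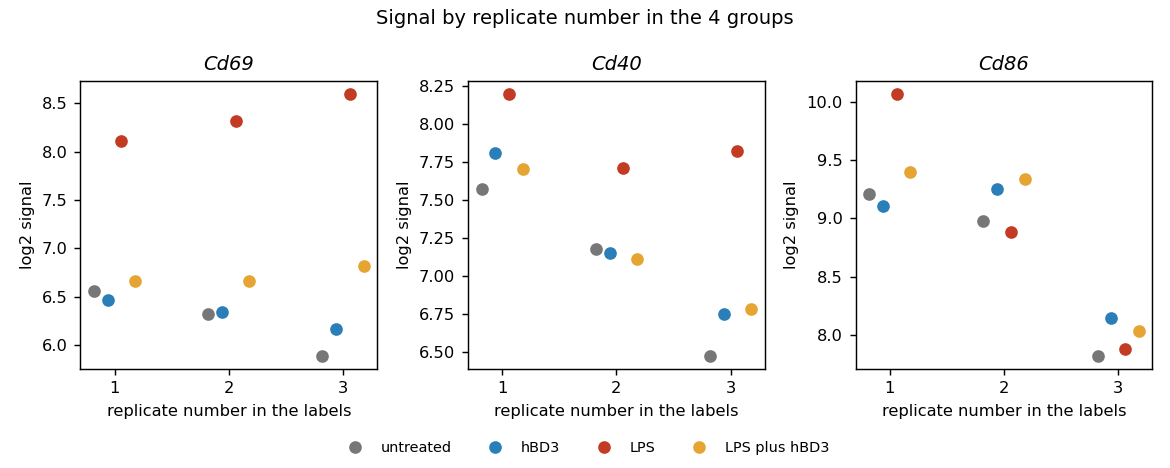
Log2 signal (y axis) of the brightest probe of Cd69, Cd40 and Cd86 by the replicate number in the labels (x axis), with 1 point per array coloured by group. The y axes do not start at 0. Cd69 separates by LPS without hBD3, while in Cd86 all 4 arrays of replicate 3 lie below all arrays of replicates 1 and 2.

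Set against all probes, the counts were as follows. With LPS, 2 of the 11 probes were called higher at an adjusted p under 0.05, those of Cd69 and Tnfsf9, where 27 of all probes were (0.105%), and 0 were called lower. At an unadjusted p under 0.05, 4 of the 11 were higher (Cd69, Tnfsf9, Icam1 and the brightest Cd40), against 1.96% of all probes. The LPS arrays were all above the untreated arrays for 3 of the 11 (Cd69, Tnfsf9 and Cd40), against 4.34% of all probes. The median log FC was 0.31 over the 11 probes and 0.0079 over all probes. Probes of Cd40 and of Cd86 share a target and are not independent. The members were also chosen with earlier results of these data known, and that choice can favour shares above those of all probes.

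For LPS plus hBD3 against LPS, 2 of the 11 probes were called lower, again Cd69 and Tnfsf9, where 14 of all probes were (0.0545%), and 0 were called higher. With the replicate number as a block, which these groups' arrays bear out, 34 of all probes were lower (0.132%) and 8 higher, and of the 11 these included Cd69 (adjusted p = 0.00209) and Tnfsf9 (adjusted p = 0.0104) and not Cd40 (adjusted p = 0.13). At an unadjusted p under 0.05 in the fit without a block, 3 of the 11 were lower, against 2.17% of all probes. The groups did not overlap for 5 of the 11, all lower, against 4.39% of all probes, and these were Cd69, Tnfsf9, Icam1, the brightest Cd40 and the Cd40 probe that no array detected. The median log FC was -0.10, against -0.0047 over all probes. This comparison uses the same LPS arrays as the one before, so the 2 are not independent of each other.

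Against untreated BMDM, LPS plus hBD3 had 0 of the 11 probes called by limma, as it had 0% of all probes, and 1 of the 11 was higher at an unadjusted p under 0.05, where 1.36% of all probes were. That probe, Cd69, was also the only one whose groups did not overlap, where 3.75% of all probes were higher without overlap. The log FC of Icam1 was 0.12 (SE 0.27) and that of the brightest Cd40 probe 0.13 (SE 0.33), 12.9% and 15.2% of those with LPS. Each such percentage sets 2 values against the same untreated arrays, and for Icam1 and Cd40 neither value passed the test. The percentages also depend on the processing. For Cd69 the log FC left was 0.27, against 2.11 with LPS, under median scaling, and 0.70 against 2.64 with neqc. For Tnfsf9 these were 0.28 against 2.46, and 0.63 against 3.29.

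hBD3 alone moved none of the members past the threshold. limma called 0 of the 11 probes and 0% of all probes, and 0 of the 11 had an unadjusted p under 0.05, where 0.988% of all probes were higher and 1.4% lower. A count of 0 of 11 is thus near the background. The log FC was 0.07 for Cd69 (95% interval -0.29 to 0.43), 0.06 for Tnfsf9 (-0.54 to 0.66), 0.00 for Icam1 (-0.58 to 0.59), 0.16 for the brightest Cd40 probe (-0.57 to 0.89), -0.01 for Cd80 (-0.21 to 0.18) and 0.16 for the brightest Cd86 probe (-1.12 to 1.44). These intervals, from the fit without a replicate block, leave room for small changes, and for Cd86 for large ones. With the replicate number as a block, the SE of the brightest Cd86 probe was 0.21 in place of 0.58 (unadjusted p = 0.445 from limma). That of the brightest Cd40 probe was 0.13 in place of 0.33 (unadjusted p = 0.254).

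Whether hBD3 acted differently with LPS than without it was tested as the difference of its 2 effects. For Cd69 this difference was -1.69 (SE 0.23, unadjusted p = 1.77e-05, adjusted p = 0.091 by limma) and for Tnfsf9 -2.14 (SE 0.39, unadjusted p = 0.00018, adjusted p = 0.309). Neither passed over all probes, where 0% did, and both were past an unadjusted p of 0.05, where 1.42% of all probes were lower. Both passed without LPS replicate 1, with an adjusted p of 0.0232 for Cd69 and 0.0107 for Tnfsf9, and with array weights (0.0236 each). Cd69 alone passed with detected probes only (0.0498) and with a trended and robust variance (0.0211). It also passed alone of the 2 with the replicate number as a block (0.0322), where 20 of all probes did. The difference was -0.79 for Icam1 (SE 0.38) and -0.87 for the brightest Cd40 probe (SE 0.47). In the fit without a block neither was past an unadjusted p of 0.05. With the replicate number as a block, limma gave this Cd40 probe an unadjusted p of 0.000914 (SE 0.19, adjusted p = 0.452). For Icam1 the unadjusted p was then 0.0552.

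**Figure D3:**
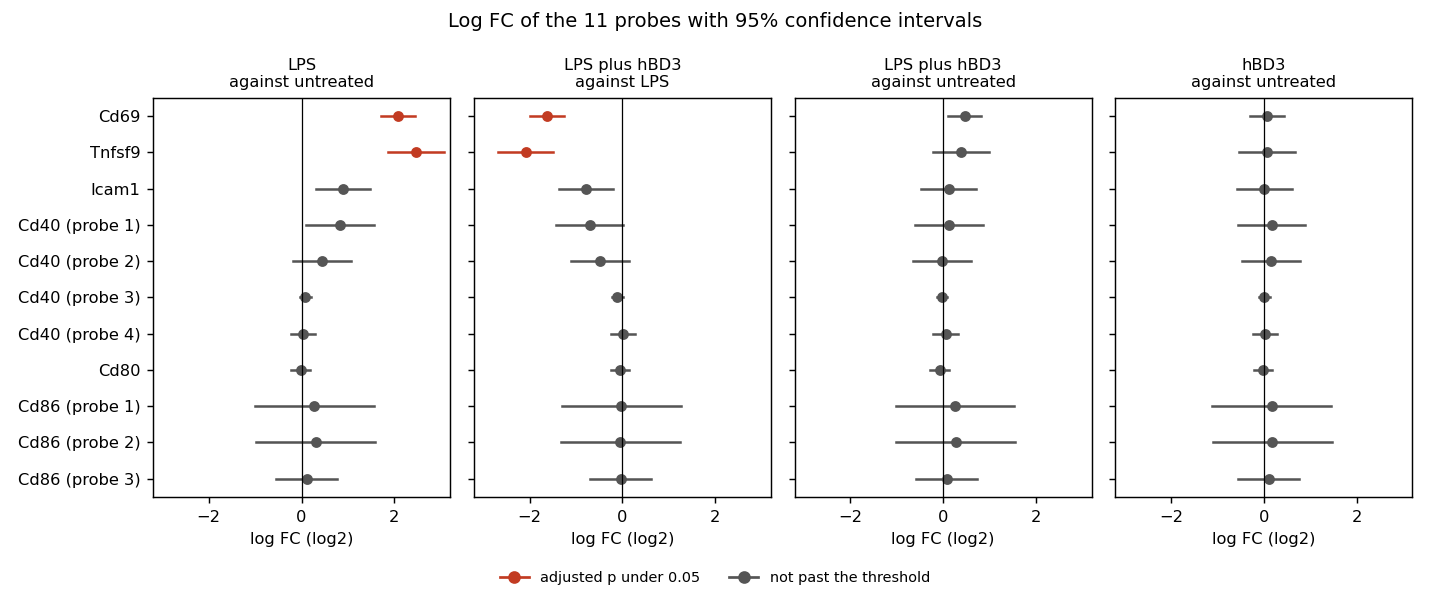
Log FC (x axis, log2 scale) of each of the 11 probes (y axis, probes of a gene numbered from the brightest) in 4 comparisons, with 95% confidence intervals from limma as lines. Probes past an adjusted p of 0.05 are in red, and these are Cd69 and Tnfsf9 with LPS and with LPS plus hBD3 against LPS. The intervals of the 2 brighter Cd86 probes are the widest.

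Over the 12 arrays the members fell into more than 1 pattern. These correlations describe arrays that share groups and, for Cd69, Tnfsf9 and Icam1, largely set the LPS arrays against the rest. Cd69 and Tnfsf9 had a Pearson correlation of 0.972, and Icam1 had 0.868 with Cd69 and 0.88 with Tnfsf9. The brightest Cd40 probe had 0.739 with Icam1 and 0.618 with the brightest Cd86 probe. Cd86 had 0.102 with Cd69 and -0.001 with Tnfsf9, and Cd80 no value above 0.546 with any member.

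The genes most like each member were sought among probes detected on at least 3 arrays, by Pearson correlation over the 12 arrays. For Cd69 these were Tnfsf9, then Cdc42ep2, an effector of the GTPase Cdc42 (0.972), and the neutrophil chemokine Cxcl2 (0.971). For Tnfsf9 they were Ppp1r15a (0.982), which directs a phosphatase to a translation factor under stress, Cd69, and the MAP kinase phosphatase Dusp2 (0.962). Icam1 was most like Hcar2, a receptor for hydroxy acids (0.959), Ccrl2, a receptor that binds chemerin (0.925), and Errfi1, an inhibitor of the EGF receptor (0.906). In all of these genes the mean with LPS was above that of untreated BMDM and that of LPS plus hBD3, as the measure itself favours. The brightest Cd40 probe was most like Cd83, another activation antigen (0.976), Herpud1, a gene of the response to stress in the endoplasmic reticulum (0.959), and the chemokine Cxcl10 (0.953). Cd86 was most like Cenpa, the centromeric histone (0.970), the inhibitory receptor Cd300a (0.961) and the small heat shock protein Cryab (0.960), whose log FC with LPS was at most 0.12. For Cd80 the highest value was 0.856, with the transcription factor Mef2a, followed by the transcription factor Fli1 (0.833) and the ubiquitin ligase Topors (0.813).

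Other co-stimulatory, co-inhibitory and adhesion molecules of the cell surface did not pass the test. Of 46 genes listed 42 were measured, 22 of them detected on at least 3 arrays, and limma called 0 in any comparison. With a replicate block it called 0 with LPS and 0 for LPS plus hBD3 against LPS. Of all probes, 0.105% were called higher with LPS and 0.0545% lower for LPS plus hBD3 against LPS. With the block, 71 of all 25697 probes were higher and 1 lower in the former, and 34 lower and 8 higher in the latter. A count of 0 of 42 is thus near the background. At an unadjusted p under 0.05, 5 of the 42 were higher and 1 was lower with LPS, and 2 were lower and 0 higher for LPS plus hBD3 against LPS. Of all probes 1.96% were higher and 1.26% lower in the former and 2.17% lower and 1.53% higher in the latter. Cd27 and Ctla4 among the 5, and Cd27 among the 2, were detected on no array, so that Cd83, Cd274 and Slamf7 were the detected genes of the 5 and Slamf7 that of the 2. Over the 42 the log FC had a median of 0.014 with LPS and -0.039 for LPS plus hBD3 against LPS, where all probes had 0.0079 and -0.0047. The largest log FC with LPS among the detected was that of Cd83, an activation antigen of antigen-presenting cells, whose mean signal was 10.01 in untreated BMDM, 10.22 with hBD3, 11.22 with LPS and 10.29 with LPS plus hBD3. Its log FC was 1.21 with LPS (SE 0.42, unadjusted p = 0.0161) and -0.93 for LPS plus hBD3 against LPS (SE 0.42, unadjusted p = 0.0504). With a replicate block limma gave Cd83 an adjusted p of 0.0542 and 0.312 in these comparisons. Next came Clec4e, the receptor Mincle (0.45, SE 0.60), and Tnfsf14, the ligand LIGHT (0.44, SE 0.48). By subgroup, 2 of 4 B7 family genes, 8 of 11 activation antigens, 6 of 9 adhesion genes and all 4 C-type lectins were detected on at least 3 arrays, but only 1 of 10 other ligands and receptors of the TNF families and 1 of 4 counter-receptors of T cells. The latter was Cd28, detected on all 12 arrays with group means of 10.30 to 10.54. The T cell markers Cd3e, Cd3d and Cd3g were detected on no array, and what the Cd28 signal reflects was not tested.

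**Figure D4:**
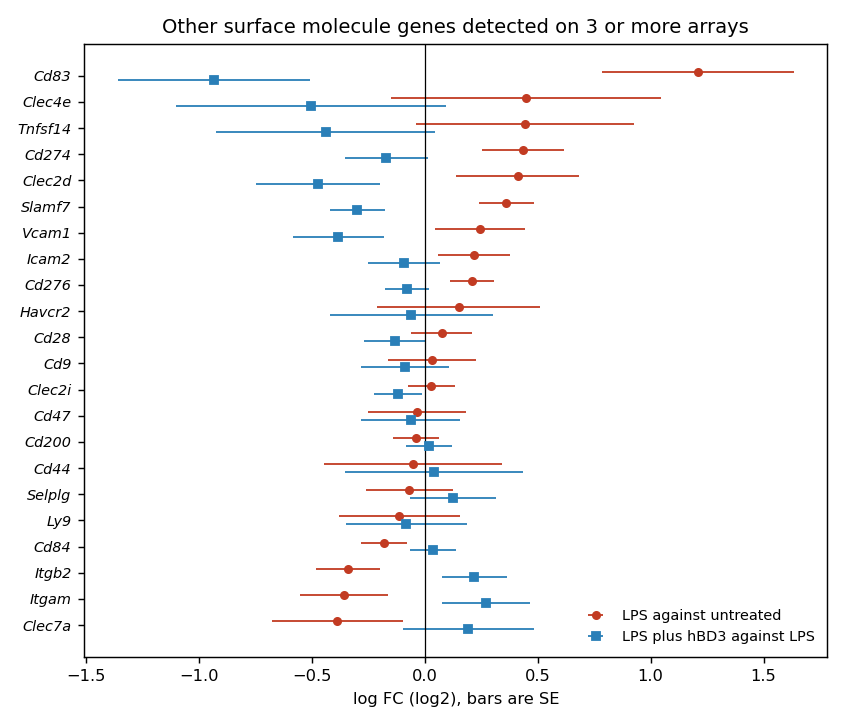
Log FC (x axis, log2 scale) of the 22 listed surface molecule genes detected on at least 3 arrays (y axis, ordered by log FC with LPS), for LPS against untreated (red circles) and LPS plus hBD3 against LPS (blue squares), with bars of 1 SE. The comparisons share the LPS arrays, so opposite signs are favoured. Cd83 lies farthest from 0 in both, and no gene passed the test.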

How the data were processed

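The deposited files held, for each probe and array, a linear intensity from BeadStudio that had not been normalized between arrays, and per the file headers its detection p-value. A further deposited table held intensities after quantile normalization by the authors and served as an alternative. Signals were quantile normalized across 12 Illumina MouseRef-8 v2.0 arrays and log2 transformed, with no background correction or filter. The model of 4 group means was fitted with limma 3.58.1 in R 4.3.3, with neither trend nor robust variance, and p-values were adjusted over all 25697 probes by the method of Benjamini and Hochberg, with a threshold of 0.05. All p-values are from limma, and the number of arrays limits the precision. No per-sample column was left unused. Probes were named with the platform annotation (23978 with 1 symbol, 1719 with none or more than 1). The members and lists were chosen with earlier results of these data known. Named genes were all member probes, the 3 genes most like each detected member (the less bright Cd40 and Cd86 probes are not repeated), and of the other surface molecules those past the test or, with none, the 3 with the largest log FC with LPS among the detected. Tnfrsf9, Cd28, the listed genes named for their unadjusted p and the markers named lie outside this rule.

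Samples of equal replicate number deviated together between LPS and LPS plus hBD3 (correlation of deviations from group means 0.519 to 0.736 over detected probes), so the blocked count is given beside that comparison. Labels do not say what the numbers mark. Alternatives were median scaling, quantile normalization of log2 signals, background correction with neqc (offset 16), the deposited value table, detected probes only, the replicate block, compared groups only, 1 probe per gene, limma's array weights, its trended and robust variance, and omission of each array in turn.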

Additional observations from a re-analysis of the deposited data

How the results depend on the processing

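The rise of Cd69 and Tnfsf9 with LPS kept its call in 21 of 22 alternatives each. In a fit to the compared groups alone 0 of the 11 probes were called with LPS (adjusted p = 0.0649 for Cd69 and 0.151 for Tnfsf9) and 0 for LPS plus hBD3 against LPS (0.0762 and 0.514), where fewer arrays estimate the spread. For LPS plus hBD3 against LPS the fall of Cd69 kept its call in 20 of 22 and that of Tnfsf9 in 13 of 22. Background correction left 0 probes called, and without 1 array the count was 1 to 2, with Tnfsf9 lost (highest adjusted p 0.175) without untreated replicate 2, hBD3 replicate 2 or 3, LPS replicate 2 or 3, or LPS plus hBD3 replicate 2 or 3. For the difference of the hBD3 effects, 0 of the 11 probes passed in the fit without a block, 1 with detected probes only and 1 with a replicate block. With array weights 2 passed, with a trended variance 1, and without 1 array 0 to 2. Over all probes 0 passed this test without a block and 20 with it. How many of all probes passed was not counted in the other alternatives, the compared groups alone included. Their counts of members are therefore not set against a background. Where not given above, the cause was not tested.

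Signs turned only in values that were not called. Under median scaling the log FC of LPS plus hBD3 against untreated was -0.14 for Icam1, -0.0814 for Cd40 and -0.0168 for Cd86, and with array weights Cd80 had 0.0225 with LPS and Cd86 had 0.13 for LPS plus hBD3 against LPS. Without 1 array, the log FC with LPS ranged from -0.106 to 0.0396 for Cd80 and from -0.29 to 0.80 for Cd86. For LPS plus hBD3 against LPS it was -0.55 to 0.54 for Cd86. For LPS plus hBD3 against untreated it was -0.0884 to 0.361 for Icam1, -0.17 to 0.37 for Cd40 and -0.17 to 0.70 for Cd86. With hBD3 alone it was -0.11 to 0.21 for Cd69, -0.055 to 0.193 for Tnfsf9, -0.20 to 0.25 for Icam1, -0.14 to 0.41 for Cd40, -0.0983 to 0.0496 for Cd80 and -0.26 to 0.51 for Cd86. For the difference of effects it was -0.102 to 0.0435 for Cd80 and -0.71 to 0.38 for Cd86.

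Between untreated and LPS arrays the deviations of equal numbers had correlations of 0.238, 0.0799 and 0.431. No other pair of groups had a value under 0.1, so the block is least borne out there. The correlations were 0.454 to 0.705 between untreated and hBD3, and 0.244 to 0.63 between untreated and LPS plus hBD3. They were 0.24 to 0.53 between hBD3 and LPS, and 0.4 to 0.747 between hBD3 and LPS plus hBD3. With a replicate block 3 of the 11 probes were called with LPS, the third being the brightest Cd40 probe (adjusted p = 0.0355), and 72 of all probes in place of 27. The block changed no call of a member for LPS plus hBD3 or hBD3 against untreated, and Cd69 passed in the difference of effects (adjusted p = 0.0322), where 20 of all probes did. A detection p under 0.05 in place of 0.01 put both dim Cd40 probes in 4 groups each. Near the detection limit, as for Cd80 and for Tnfsf9 without LPS, differences are compressed.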
